A study of Oryctolagus cuniculus with 54 samples.

Results

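The genes described here are the 150 whose lung expression was most reduced between the 25th and the 29th day of gestation in New Zealand White rabbits, out of 29587 genes listed. They were chosen on the libraries of sequencing run 1: a gene had to be higher in all 3 F25 libraries than in all 3 F29 libraries, with an F25 mean of at least 2.6 on the log2(CPM + 1) scale (CPM, counts of the gene per 1000000 counts of the library). The 2998 genes that met this were ranked by the F25 minus F29 difference, and the first 150 were kept. The ranking difference ran from 2.99 for the first gene, ENSOCUG00000005775, to 1.78 for the genes ranked 149 and 150, and the first genes left out, ranked 151 and 152, had differences of 1.78 and 1.77. Because F25 and F29 of run 1 chose the genes, the levels in these groups are given as a description, and every test below used libraries of other groups. In a fit of that contrast 147 of the 150 genes passed as lower at F29, where 2.99% of all genes were lower and 4.42% higher, which the choice of genes fixes.

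RNA was taken from lung homogenates of 45 rabbits at 13 time points, and 54 libraries of 3′ mRNA tags were sequenced in 3 runs. Fetal pups were delivered by C-section and the lungs taken at once on gestational day 20 (F20, 4 animals), 23 (F23, 4), 25 (F25, 3), 27 (F27, 3), 28 (F28, 3) and 29 (F29, 3). Term pups were born naturally on day 31, stayed with their mothers at room air, and were studied at birth (T31, 6 animals) or 4 (T35, 3), 6 (T37, 4) and 11 days later (T42, 3). Preterm pups were delivered by C-section on day 28, kept in incubators at 21% oxygen and fed milk replacer by tube, and formed the groups P0, P3 and P7 (3 animals each), taken at 1 h and at 3 and 7 days of life. Per the methods of the study each lung came from a pup of a different dam, and at F20 and F23 the whole lungs were used in place of the right lung. Library totals ran from 5771693 to 8073755 counts, and between 0 and 3 of the 150 genes had no count in a given library.

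In the pseudoglandular phase (F20 and F23) the lung is a branching tree of epithelial tubes in dense mesenchyme. In the canalicular phase (F25 and F27) the airways widen and capillaries approach the epithelium, in the saccular phase (F28 and F29) thin-walled sacs form, and in the alveolar phase (T31 to T42) septa subdivide the sacs. The lung goes on growing after birth, by cell division as well as by inflation. The files gave genes by Ensembl identifier, and 0 of 29587 identifiers could be paired with a symbol in the tables used here, so the genes are described by rank and by profile, without statements on their function. For the same reason the tissue was not checked against cell type markers. In homogenates of whole tissue, fewer cells of a type and less RNA per cell cannot be told apart.

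Most of the 150 genes stepped down at each fetal time point of run 1 and continued downwards to birth. In run 1 together they held 1.31% ± 0.06 of the counts at F25 (SD, n = 3), 0.763% ± 0.14 at F27, 0.462% ± 0.065 at F28, 0.298% ± 0.061 at F29 and 0.191% ± 0.036 at T31. The share was 1.25% to 1.36% in the F25 libraries, 0.597% to 0.853% at F27, 0.388% to 0.504% at F28, 0.252% to 0.367% at F29 and 0.163% to 0.232% at T31. Neighbouring groups of this series did not overlap. The T35 animals held 0.707%, 0.482% and 0.194%, a span from above F28 down to the T31 range.

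**Figure D1:**
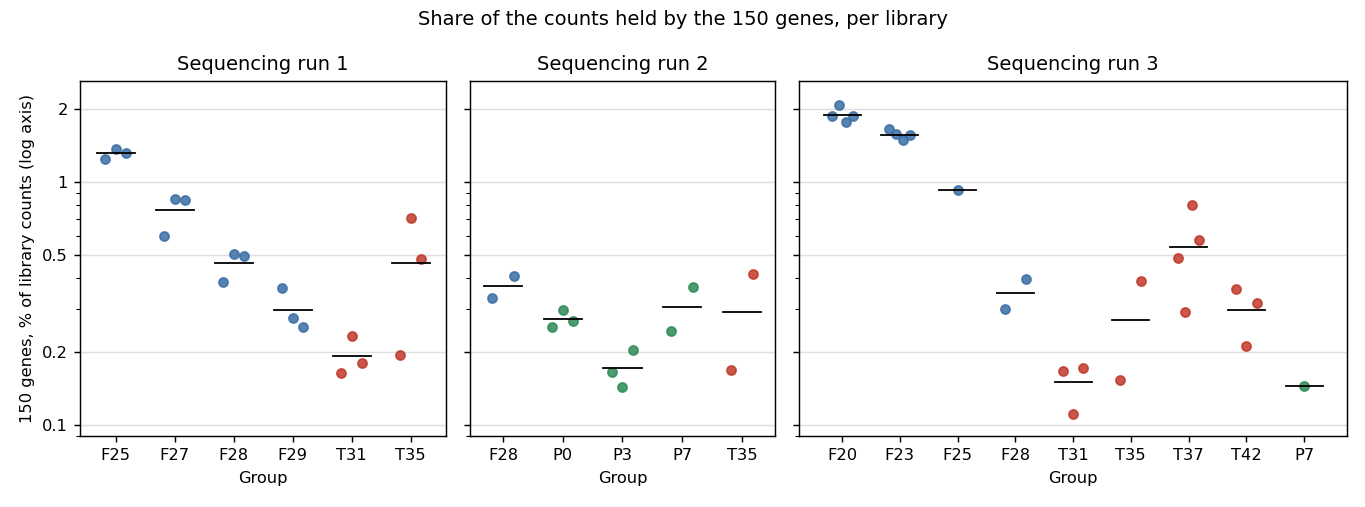
Share of the library counts held by the 150 genes (percent, log axis) for each library, in 3 panels for the sequencing runs; points are libraries, horizontal bars are group means, and blue, red and green mark fetal, term and preterm animals. The share goes from about 1.89% at F20 to 0.150% at T31 in run 3, and the T37 libraries lie between 0.292% and 0.803%.

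Gene by gene, the F27 mean lay between those of F25 and F29 for 150 of 150 genes. The order F25, F27, F28, F29 from high to low held for 145. The choice of genes had fixed the order of F25 and F29, and their wide difference favours F27 and F28 lying in between. No share over all genes is given for these orders, which are a description. For 128 of the 145 genes T31 was lower still. The median step in group means was -0.84 from F25 to F27, -0.68 from F27 to F28, -0.64 from F28 to F29 and -0.67 from F29 to T31, on the log2(CPM + 1) scale. T31 was the lowest group of run 1 for 126 genes, F29 for 10, T35 for 12 and F28 for 2. The first-ranked gene, ENSOCUG00000005775, had 21.5, 20.0 and 24.9 CPM at F25, 12.3, 6.18 and 5.60 at F27, 4.19, 4.78 and 4.84 at F28, 1.29, 1.99 and 2.57 at F29, and 1.93, 2.73 and 1.08 at T31. F29 and T31 overlapped for this gene, while the earlier groups did not overlap with each other.

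**Figure D2:**
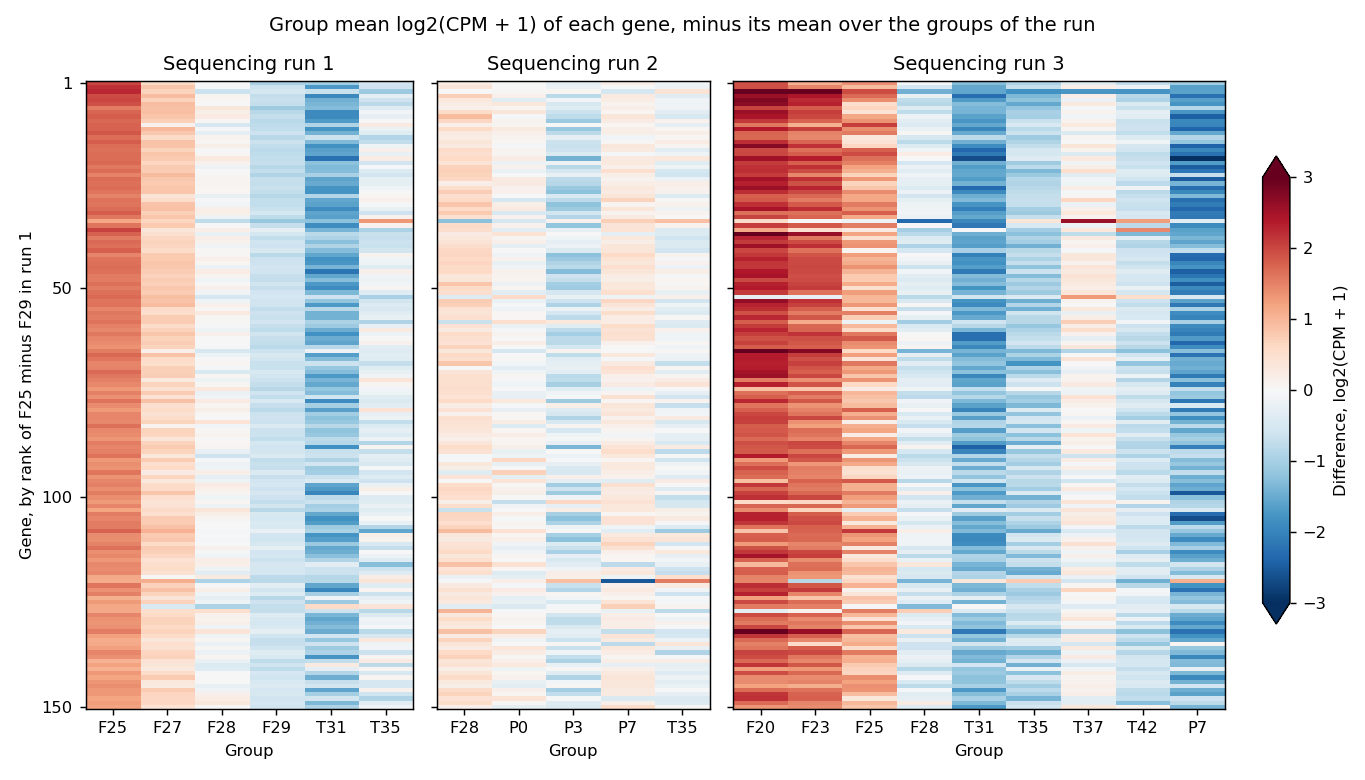
Group mean log2(CPM + 1) of each of the 150 genes minus its mean over the groups of the same run (colour scale, red above and blue below), with genes in order of rank and 1 panel per sequencing run. In run 3 the 2 earliest groups are the highest for most genes, T31 is among the lowest, and T37 stands between; single genes such as those ranked 34 and 120 depart from this.

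Between F27 and F28, no single gene passed the test, and nearly all leaned the same way. Both days lie inside the window that chose the genes, so a downward lean follows in part from that choice. The fitted log2 fold change was negative for 149 of the 150, with a median of -0.75 and the central 80% of genes (10th to 90th percentile) between -1.05 and -0.41, where the median over all 14063 genes tested was -0.01. With edgeR's quasi-likelihood test, 0 of the 150 genes and 0% of all genes in either direction had a fold change above 2 at an adjusted p of at most 0.05, the rule for a call used throughout. At an unadjusted p under 0.05, 27 of the 150 genes were lower at F28 and 0 higher, where 2.99% of all genes were lower and 4.44% higher. DESeq2 called 1 of the 150 genes as lower, where 59 of all 14063 genes were higher and 13 lower, and limma-voom called 0.

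The earlier fetal groups F20 and F23 played no part in the choice of genes, and most of the genes were higher there than at F28. The span from F23 to F28 overlaps the window that chose the genes, so a fall over it follows in part from that choice. The F25 library of run 3, of an animal that chose the genes, was above the F28 mean by a median of 1.40. F23 means were above that library for 133 of the 150 genes. In run 3 the genes held 1.76% to 2.07% of the counts in the 4 F20 libraries, 1.49% to 1.65% in the 4 F23 libraries, and 0.300% and 0.398% in the 2 F28 libraries. Of the 150 genes, 137 (91.3%) fell from F23 to F28 and 0 rose, against 7.06% of all 14768 genes tested that fell and 9.13% that rose. The median log2 fold change was -2.05 (central 80%, -2.70 to -1.47) beside -0.03 for all genes. The F23 libraries lay wholly above the F28 libraries for 144 of the genes, as they did for 29.4% of all detected genes. Without F28 replicate 2, which leaves 1 F28 library, the count of genes that fell was 77.

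The steepest fall was that of the gene ranked 3. It had 99.8, 101, 59.6 and 71.0 CPM at F23 and 1.27 and 0.71 CPM at F28, a log2 fold change of -6.19 ± 0.50 (SE). At F20 it had 80.9 to 99.3 CPM, and no library after F27 of any run exceeded 1.93 CPM. The single F25 library of run 3 stood at 19.9 CPM, between F23 and F28. The genes ranked 90 and 65 fell by 4.60 and 4.40 on the log2 scale. The gene ranked 127 was the only one of the 150 with a positive fold change from F23 to F28, 0.94 ± 0.81, with an adjusted p of 0.42. Its mean level was 1.71 CPM at F20, 2.44 at F23, 7.97 in the F25 library and 4.19 at F28, and in run 1 it went from 13.9 CPM at F25 to 3.57 at F29.

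Between F20 and F23 the difference was small. The fold change was negative for 129 genes, with a median of -0.31, and 1 of the 150 genes fell and 0 rose, where 0.196% of all genes fell and 1.56% rose. That gene, ranked 65, went from 182 ± 19.2 CPM (SD, n = 4) at F20 to 65.5 ± 11.5 at F23, a log2 fold change of -1.48, and on to 2.77 ± 0.89 CPM (n = 2) at F28. Without F20 replicate 1, 2 genes fell and 0 rose, where 18 of all 14682 genes fell and 218 rose. Without F20 replicate 35, 1 gene fell and 1 rose, where 31 of all 14679 genes fell and 263 rose. The F20 libraries lay above all F23 libraries for 45 genes, and for 4.38% of all detected genes. F20 was the highest group of run 3 for 124 genes, F23 for 14, F25 for 9, T37 for 2 and T42 for 1.

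**Figure D3:**
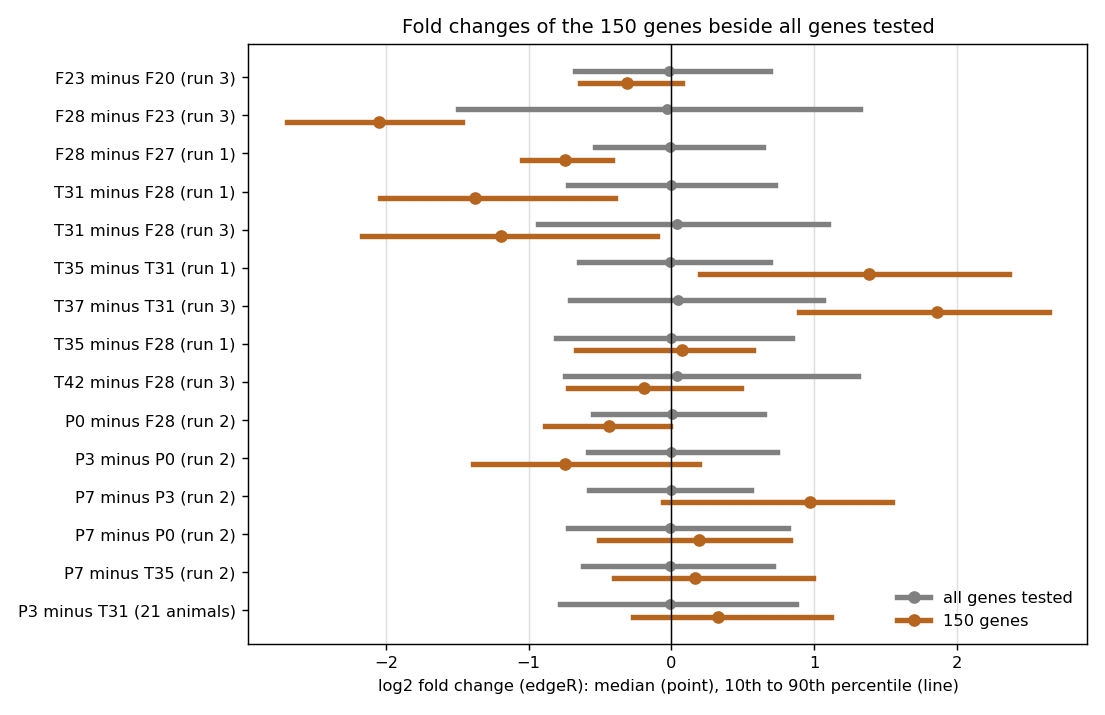
Log2 fold change of the 150 genes (brown) and of all genes tested (grey) in 15 comparisons fitted without F25 and F29 libraries, with the median as a point and the 10th to 90th percentile as a line. The 150 genes lie to the left of all genes from F23 to F28 (median -2.05) and to the right from T31 to T37 (median 1.86), and around 0 from F28 to T35 and to T42.

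From F28 to term birth the genes went lower again. The step from F28 to F29 lies inside the window that chose the genes, so this fall follows in part from that choice. In group means of run 1 the median step was -0.64 from F28 to F29 and -0.67 from F29 to T31. In run 1 the median log2 fold change T31 minus F28 was -1.38 (central 80%, -2.04 to -0.40), with 143 of 150 negative. Of the 150 genes 5 (3.33%) fell and 0 rose, where 0.228% of all genes fell and 0.306% rose. Which of them passed depended on few libraries: leaving out T31 replicate 15 gave 24 calls, of which 23 were falls, while over all 13983 genes of that fit 257 were higher and 197 lower, and leaving out any other single F28 or T31 animal gave 0. At an unadjusted p under 0.05, 109 of the 150 were lower and 1 higher, where 8.13% of all genes were lower and 9.49% higher. Run 3 held the 3 other T31 animals with 2 libraries of F28, which repeat F28 replicates 2 and 7 of run 1. This comparison gave 52 falls (34.7%) and 1 rise, where 3.13% of all genes fell and 1.79% rose, with a median of -1.20. Here the count was 31 without F28 replicate 2 and 13 without F28 replicate 7. The F28 libraries lay above all T31 libraries for 127 genes in run 1 and for 113 in run 3, and for 13.6% and 21.9% of all detected genes.

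The single rise from F28 to T31 in run 3 was that of ENSOCUG00000007765, ranked 126. It had 10.6 and 9.99 CPM in the F28 libraries and 64.6, 18.6 and 17.5 in the T31 libraries of that run, and 5.36, 7.34 and 7.41 CPM at F28 and 83.6, 12.6 and 8.60 at T31 in run 1. In each run 1 T31 animal stood far above the others. The call was lost without T31 replicate 4, the highest of run 3, with a log2 fold change of 0.93 and an adjusted p of 0.173. It was also lost without F28 replicate 2 or 7, with adjusted p of 0.149 and 0.161, under limma-voom with 0.114, and in 1 fit over 39 animals with 0.0676. The same was seen in the group that chose it: at F25 the levels were 89.9, 19.2 and 18.9 CPM, so that its rank rested in large part on 1 animal. Before that it had 60.8 to 141 CPM at F20 and 55.7 to 141 at F23.

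After term birth the genes came back up. Between T31 and T37, 121 of the 150 genes (80.7%) rose and 0 fell, where 4.13% of all 14768 genes rose and 1.61% fell. The median log2 fold change was 1.86 (central 80%, 0.89 to 2.65) beside 0.05 for all genes, and 147 of 150 were positive. The T31 libraries of run 3 held 0.111% to 0.172% of their counts in these genes and the T37 libraries 0.292%, 0.485%, 0.574% and 0.803%, without overlap. The T37 libraries lay above all T31 libraries for 96 of the genes, and for 13.1% of all detected genes. Of the 121 genes that rose, 118 (97.5%) were also among the 137 that had fallen from F23 to F28, of which they made up 86.1%. Of all 150 genes 91.3% fell from F23 to F28, as did 19 of the 29 that did not pass from T31 to T37, so nothing particular to the shared genes is read from the overlap. These comparisons share no library.

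**Figure D4:**
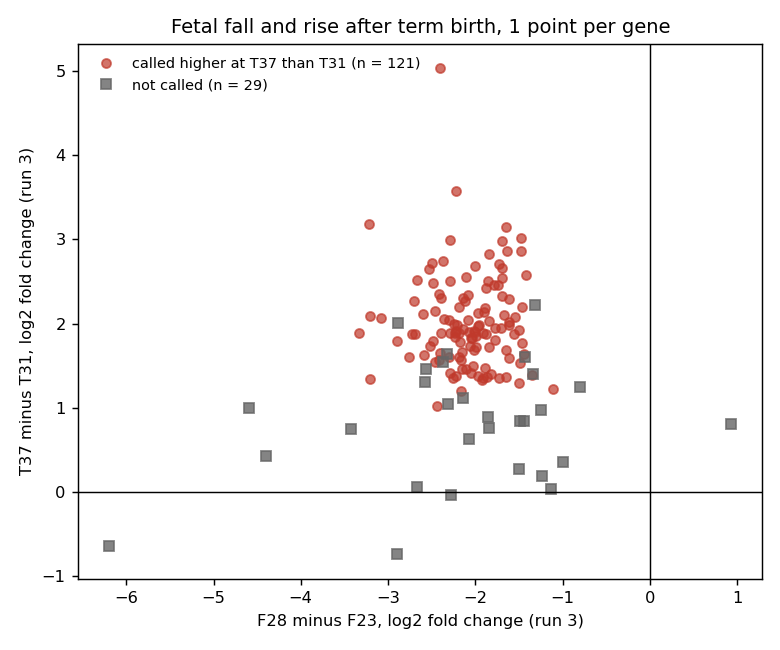
Log2 fold change F28 minus F23 (x axis) and T37 minus T31 (y axis) of each of the 150 genes in run 3; red circles mark the 121 genes that rose from T31 to T37 and grey squares the 29 that did not pass the test. The red points lie between -3.33 and -1.10 on the x axis, and the genes with the steepest fetal falls, down to -6.19, are among the grey ones.

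At T35, 2 days earlier, the rise was visible but uneven. Between T31 and T35 of run 1, 14 of the 150 genes (9.33%) rose and 0 fell, where 0.284% of all genes rose and 0.164% fell, with a median of 1.39 (central 80%, 0.20 to 2.37) and 139 genes positive. All 14 were among the 121 that rose from T31 to T37 in other animals, of which they were 11.6%. The number was 74 without T35 replicate 11, 9 without T31 replicate 15, and 0 without any other single T31 or T35 animal. In the fit without T35 replicate 11, 120 of all 13968 genes were higher and 15 lower. DESeq2 called 70 of the 150 genes, where 195 of all 14063 genes were higher and 101 lower, and limma-voom called 0.

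This spread followed the animals. T35 replicate 1 was the highest of its group for 140 genes and T35 replicate 11 the lowest for 137, where 40.4% and 34.5% of all detected genes had those orders. The median level of the 150 genes was 4.60, 3.86 and 2.55 in T35 replicates 1, 6 and 11, on the log2(CPM + 1) scale, beside 2.55 to 2.99 in the T31 libraries of that run. T35 replicates 6 and 11 were sequenced in all 3 runs, and replicate 6 was higher for 138, 132 and 137 of the 150 genes, by a median of 1.24, 1.12 and 1.20, where 50.7%, 46.6% and 47.5% of all detected genes had that order. These are repeated libraries of the same animals. The T37 animals differed in the same manner, with replicate 46 highest for 120 genes and replicate 27 lowest for 137, where 30.5% and 33.5% of all detected genes had those orders. At T42 replicate 33 was lowest for 124 genes, against 25.2% of all genes, and at F27 replicate 11 for 141, against 28.3%. At F29 replicate 11 was highest for 112 genes, against 31.9%. At F20 and F23 no animal was the highest of its group for more than 70 and 68 genes, against 39.3% and 30.4%. None was the lowest for more than 64 and 56 genes, against 29.9% and 30.8%. F20, F23 and T37 held 4 animals each, and F27, F29, T35 and T42 held 3.

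Set against the level at F28, few of the genes passed the test at T35 or T42, which with few animals does not show a return to that level. In run 3 the median level of the 150 genes was 3.40 at F28, 2.83 at T35, 3.87 at T37 and 3.20 at T42, on the log2(CPM + 1) scale. T37 minus F28 was not tested. Of the 150 genes 1 rose and 2 fell from F28 to T35 in run 1, where 2.63% of all genes rose and 2.02% fell, a share of the 150 below that of all genes. The median fitted fold change was 0.08 (central 80%, -0.67 to 0.57) with 86 genes positive, but on the means of log2(CPM + 1) only 37 were higher at T35, and without T35 replicate 1 the fitted median was -0.44. The number of genes that passed was 5 without T35 replicate 1 and 7 without T35 replicate 11. By T42 in run 3, 3 genes had risen above F28 and 2 were below it, where 3.17% of all genes rose and 1.42% fell, and the median was -0.19 with 48 positive. Without F28 replicate 2 or 7, 1 and 2 genes passed. Levels at T37 were higher than at F28 of the same run for 126 genes, higher than in the F25 library for 9 and higher than at F23 for 3. T42 was lower than T37 for 147 genes, by a median of -0.69. These T37 and T42 orders are descriptions of group means.

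The gene with the largest log2 fold change from T31 to T37 was ENSOCUG00000022908, ranked 34. In run 1 it had 77.6, 52.2 and 54.9 CPM at F25, 11.7, 12.5 and 24.4 at F28, 9.20, 17.3 and 7.83 at T31, and 122, 63.3 and 39 at T35. In run 3 it had 6.22 and 5.57 CPM at F28, 6.11, 15.6 and 5.20 at T31, 97.3, 814, 254 and 90.2 at T37, and 118, 79.3 and 56.6 at T42. All T37 and T42 libraries were above all F28 and T31 libraries. The highest T37 value was that of replicate 27, the lowest T37 animal for most of the other genes. The log2 fold change was 2.33 ± 0.50 (SE) from F28 to T35 with an adjusted p of 0.0156, 5.03 ± 0.73 from T31 to T37 with an adjusted p of 0.000184, and 3.88 ± 0.86 from F28 to T42 with an adjusted p of 0.00709. The first was lost without F28 replicate 2 or 7, with adjusted p of 0.0677 and 0.0698. The last was lost without F28 replicate 2 or 7, with adjusted p of 0.0913 and 0.0902, and under limma-voom with 0.053. In the preterm groups it had 24.2, 11.2 and 9.23 CPM at P0, 37.9, 11.8 and 23.0 at P3 and 42.2 and 26.2 at P7 of run 2.

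ENSOCUG00000000960, ranked 116, was below F28 of the same run in all term libraries, with a T31 level that differed between runs. At T31 it had 6.97 to 8.60 CPM in run 1 and 0.28 to 3.94 CPM in run 3. It was among the genes that fell from F28 to T31 in run 3 but not in run 1. It had 11.6, 10.6 and 10.9 CPM at F28 and 3.79, 4.16 and 2.49 at T35 in run 1, and the T35 minus F28 log2 fold change was -1.51 ± 0.31 with an adjusted p of 0.0111. In the preterm pups of run 2 it had 8.99, 8.36 and 5.92 CPM at P0, 4.21, 3.76 and 4.02 at P3 and 2.59 and 2.84 at P7. These groups did not overlap within run 2. The third P7 animal, sequenced in run 3 without P0 or P3 libraries, had 4.24 CPM, just above the P3 libraries of run 2. The P7 minus P0 fold change in run 2 was -1.58 ± 0.30 with an adjusted p of 0.00739. That call was lost without P7 replicate 3 or 4, with adjusted p of 0.0723 and 0.0505, and in 1 fit over 39 animals, with a fold change of -1.18 and an adjusted p of 0.138. At T37 it stood at 3.66 to 6.91 CPM and at T42 at 3.23 to 3.83 CPM, below both F28 libraries of run 3, at 7.92 and 9.56 CPM.

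**Figure D5:**
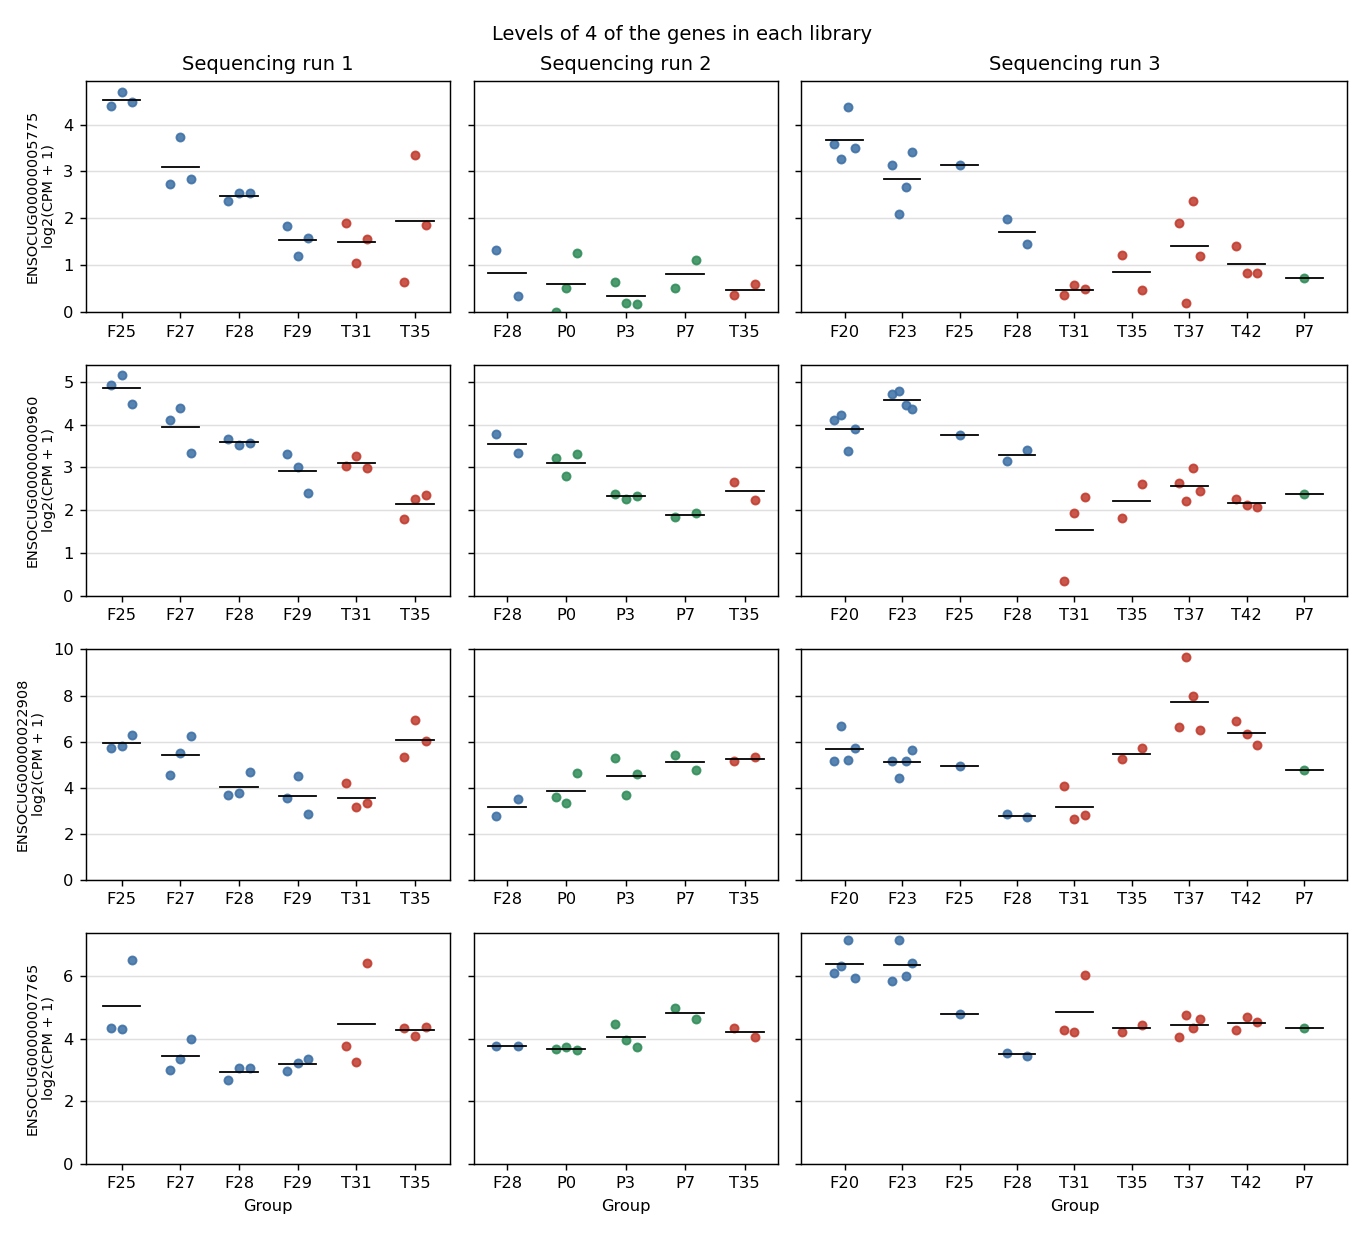
Log2(CPM + 1) of 4 of the 150 genes in every library, in rows by gene and in columns by sequencing run; points are libraries, bars are group means, and blue, red and green mark fetal, term and preterm animals. ENSOCUG00000022908 is highest at T37, where its libraries run from 90.2 to 814 CPM, and ENSOCUG00000000960 goes down from P0 to P7 without overlap.

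In preterm pups of run 2 the share of counts in the 150 genes was lowest at P3, and few single genes passed the test. The genes held 0.332% and 0.410% of the counts in the 2 F28 libraries, 0.253% to 0.297% at P0, 0.143% to 0.204% at P3 and 0.244% and 0.369% at P7. P0 and P3 did not overlap, and neither did P3 and P7 within run 2. The third P7 animal, sequenced in run 3 without P0 or P3 libraries, held 0.145%. One hour after delivery, the fold change against F28 fetuses of the same gestational age was negative for 135 genes, with a median of -0.44. edgeR called 0 of the 150 genes in either direction, where 0.0363% of all genes fell and 0.181% rose. At an unadjusted p under 0.05, 13 genes were lower and 4 higher, where 5.26% of all genes were lower and 5.95% higher. DESeq2 and limma-voom called 0 as well, where DESeq2 gave 76 of all 13791 genes higher and 20 lower.

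From P0 to P3, 8 of the 150 genes (5.33%) fell and 0 rose, where 0.689% of all genes fell and 1.83% rose. The median was -0.75 (central 80%, -1.39 to 0.19) with 125 negative. The P0 libraries lay above all P3 libraries for 73 of the genes, and for 9.75% of all detected genes. The number of genes that passed was 1 or 2 when any 1 P0 animal or P3 replicate 3 was left out, and 0 without P3 replicate 1 or 2. From P3 to P7 the median was 0.97 (central 80%, -0.06 to 1.54) with 132 positive. Here edgeR called 0 genes, where 0.0363% of all genes rose and 0.00725% fell. At an unadjusted p under 0.05, 71 genes were higher and 2 lower, where 5.18% of all genes were higher and 4.43% lower. DESeq2 called 11 of the 150 genes, where 48 of all 13791 genes were higher and 9 lower, and limma-voom called 0. Both comparisons use the same P3 libraries.

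Over the whole preterm week, from P0 to P7, 1 of the 150 genes rose and 1 fell, where 3.09% of all genes rose and 1.17% fell. The riser was ENSOCUG00000007765, with 11.3, 11.7 and 12.3 CPM at P0, 20.9, 14.5 and 12.3 at P3 and 30.4 and 23.8 at P7, and a log2 fold change of 1.13 ± 0.21 with an adjusted p of 0.00686. That call was lost without P7 replicate 3, with a fold change of 0.99 and an adjusted p of 0.0661, and in 1 fit over 39 animals with an adjusted p of 0.295. The one that fell was ENSOCUG00000000960. The count was 4 without P7 replicate 3 and 1 without P7 replicate 4. The median was 0.19, and it was 0.55 without replicate 3 and -0.20 without replicate 4. P7 replicate 4 was above replicate 3 for 133 genes, an order that 42.8% of all detected genes had.

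No difference in these genes passed edgeR's test between preterm and term pups of the same age after conception. At P7 against T35 in run 2, with 2 animals in each group, edgeR called 0 of the 150 genes, where 0.435% of all genes rose and 0.058% fell, and the median was 0.16 with 89 positive. At an unadjusted p under 0.05, 16 genes were higher at P7 and 4 lower, where 6.1% of all genes were higher and 5.61% lower. DESeq2 called 2, 1 higher and 1 lower, where 129 of all 13791 genes were higher and 26 lower. Under limma-voom 0 were called. The T35 libraries of this comparison were those of replicates 6 and 11, with 0.416% and 0.168% of their counts in these genes, and the P7 libraries lay between them. The P7 animal of run 3 was below T35 replicate 6 of that run for 130 genes and below T35 replicate 11 for 90, where 39.9% and 42.9% of all detected genes had those orders. P7 was thus above T35 by the mean in run 2 for 124 genes, against 62.3% of all detected genes, and below both T35 libraries in run 3 for 88, against 27.4%.

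The change from day 28 to day 35 after conception was also compared directly, as P7 minus P0 against T35 minus F28 in run 2. The preterm change covers 7 days after birth. The term change starts from fetuses and ends 4 days after birth on day 31, so time since birth differs between them. The median difference was 0.54 (central 80%, -0.28 to 1.79), with 123 of 150 positive. edgeR called 0 genes, where 0.0725% of all genes were higher and 0.0653% lower. At an unadjusted p under 0.05, 25 genes were higher and 3 lower, where 6.11% of all genes were higher and 7.18% lower. DESeq2 called 6 as higher, where 85 of all 13791 genes were higher and 78 lower, and limma-voom called 0. At P3 against T31, of the same age after conception, 21 animals were fitted with the run as a term because no run held both groups. The median was 0.33 (central 80%, -0.27 to 1.12) with 120 positive, edgeR called 0 genes, where 0.0963% of all genes rose and 0% fell, and at an unadjusted p under 0.05 11 genes were higher and 1 lower, where 5.97% of all genes were higher and 4.46% lower. DESeq2 called 1 gene as higher, where 87 of all 14544 genes were higher and 23 lower, and limma-voom called 0.

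The gene ranked 120 differed widely between animals, also within a group such as F29. Its levels over the 54 libraries left a gap between 21.6 and 98.0 CPM: 15 libraries of 13 animals lay between 7.21 and 21.6 CPM, and 39 libraries of 32 animals between 98.0 and 633 CPM. No animal sequenced in more than 1 run lay on both sides, and F28 replicate 2 had 12.9, 20.3 and 8.48 CPM in runs 1, 2 and 3. The F25 libraries of run 1 had 465, 441 and 542 CPM and the F29 libraries 280, 18 and 380, so that its place among the 150 rested on F29 replicate 7. Of the other detected genes 30 had a gap at least as wide with 5 or more animals on either side. All libraries of F20, F25, F27, T35 and P3 were in the upper range, and the P7 libraries of run 2 had 10.6 and 12.1 CPM and that of run 3 180 CPM. No comparison above called this gene, and the P7 minus T35 log2 fold change was -4.34 ± 1.14 with an adjusted p of 0.146.

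Most comparisons of these genes were made within a run. P3 minus T31 and the fit over 39 animals joined runs with the run as a term. Some levels were set side by side across runs without adjustment, such as those of the genes ranked 3 and 120. The same animals gave lower values for most of the 150 genes in runs 2 and 3 than in run 1, by medians of -0.16 to -0.39 on the log2(CPM + 1) scale, beside -0.07 to -0.11 for all detected genes. Single genes differed more. The 10th percentile over the 150 genes was -1.06 to -1.63 for F28 and T35 animals and -2.19 for F25 replicate 13. The 90th percentile was 0.50 to 0.66. For the gene ranked 36, F25 replicate 13 had 281 CPM in run 1 and 30.7 in run 3. Its difference between F25 and F29 in run 1 was 289 ± 7.3 against 57.9 ± 5.6 CPM (SD, n = 3 each), and at F20 in run 3 its levels ran from 28.2 to 108 CPM. In the F25 library of run 3, which repeats an animal that chose the genes, all 150 genes were above both F28 libraries, by a median of 1.40, where 34.7% of all detected genes were above both.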

How the data were processed

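Lung RNA of 45 rabbits was sequenced as 54 QuantSeq 3′ tag libraries in 3 runs. The table deposited by the authors held raw read counts per Ensembl gene (OryCun2.0): they trimmed reads with BBduk, aligned them with STAR, counted with HTSeq-count and used a custom script for unannotated 3′ UTRs. Tool versions were not given in the sources used here. All 54 columns were mapped to animals by the labels, and 0 listed features named no gene.

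Counts were fitted with edgeR 4.0.16 (R 4.3.3; TMM, quasi-likelihood test, Benjamini-Hochberg adjustment over all genes tested) within 1 run at a time, without F25 and F29 libraries, so that each animal entered once. Genes needed 0.5 CPM in at least 3 fitted libraries, which all 150 genes passed in the fits reported, and 149 in some fits that left out an animal or used the replicate block. A call was a fold change above 2 at an adjusted p of at most 0.05. P3 and T31 were fitted over 21 animals with a run term. Folds come from the count model, and levels are log2(CPM + 1). Alternatives were limma-voom (limma 3.58.1), DESeq2 1.42.0, other size factors, filters and member lists, 1 fit over 39 animals, and each animal left out. Scripts were tested on simulated counts.

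The 150 genes, the comparisons and the gene lists were chosen with earlier results of these data known. The T31 minus F28 comparison in run 3, T35 minus T31, P3 minus P0 and P7 minus P3 were added after the data were seen. The rule for naming genes and the pathway and cell type lists required symbols; with 0 of 29587 identifiers paired with one, neither was applied, and the 4 identifiers printed, with further genes given by rank, were chosen after their values were seen. Animal numbers did not pair samples.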

Additional observations from a re-analysis of the deposited data

How the results depend on the processing

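Of 147 values recomputed under alternatives other than leaving out an animal, 101 counts of called genes kept within 1.5 times the reported count and 46 did not. Of the 150 genes, 149 were shared when the ranking used TMM-scaled CPM. With DESeq2 the counts were 1 for F28 minus F27, 68 for T31 minus F28 and 70 for T35 minus T31 in run 1, 5 for P7 minus P0, 2 for P7 minus T35, 6 for the difference of the preterm and term changes, 22 for P3 minus P0, 11 for P7 minus P3 and 1 for P3 minus T31. With limma-voom they were 0 for T31 minus F28 and 0 for T35 minus T31 in run 1, 3 for T42 minus F28, 29 for T31 minus F28 in run 3 and 2 for P3 minus P0. Without a filter on low counts they were 1 for F28 minus F27, 66 for T31 minus F28 in run 1, 65 for T35 minus T31, 1 for P0 minus F28, 8 for P7 minus P0, 5 for P7 minus T35, 13 for the difference of changes, 40 for P3 minus P0, 44 for P7 minus P3 and 1 for P3 minus T31. With at least 10 counts in every library they were 9 for T31 minus F28 and 22 for T35 minus T31 in run 1, 0 for F23 minus F20, 90 for F28 minus F23 and 3 for T42 minus F28, with fewer genes tested. With library totals as the scale T31 minus F28 in run 1 gave 11, and a scaling moved the median of all genes by at most 0.19. In 1 fit over 39 animals with the run as a term they were 1 for F28 minus F27, 81 for T31 minus F28 in either run, 6 for T35 minus F28, 60 for T35 minus T31, 1 for P7 minus P0 and 5 for P3 minus P0. Among the first 75 genes alone, a list of fewer genes, they were 2 for T31 minus F28 in run 1 and 31 in run 3, 1 for T35 minus F28, 8 for T35 minus T31, 69 for F28 minus F23, 65 for T37 minus T31, 3 for T42 minus F28, 4 for P3 minus P0 and 0 for P7 minus P0. Calls over all genes moved as well, so these changes are not confined to the 150 genes. For T31 minus F28 in run 1 the reported fit gave 43 of all genes higher and 32 lower. DESeq2 gave 207 and 159, the fit without a filter 171 and 146, and the fit over 39 animals 139 and 323. For P7 minus P3 the reported 5 and 1 became 48 and 9 with DESeq2 and 126 and 41 without a filter. F28 minus F27 went from the reported 0 and 0 to 59 and 13 with DESeq2 and 34 and 8 without a filter. The fit over 39 animals gave 16 and 5. T35 minus T31 went from the reported 40 and 23 to 195 and 101 with DESeq2 and 17 and 12 with limma-voom. It had 180 and 99 without a filter and 152 and 41 over 39 animals. For P3 minus P0 the reported 253 and 95 became 309 and 118 with DESeq2 and 222 and 84 with limma-voom. It had 400 and 174 without a filter and 180 and 61 over 39 animals. P7 minus P0 went from the reported 426 and 162 to 440 and 183 with DESeq2 and 546 and 243 without a filter. The fit over 39 animals gave 407 and 126. P7 minus T35 went from the reported 60 and 8 to 129 and 26 with DESeq2 and 188 and 61 without a filter. The difference of changes went from the reported 10 and 9 to 85 and 78 with DESeq2 and 149 and 141 without a filter. P3 minus T31 went from the reported 14 and 0 to 87 and 23 with DESeq2 and 93 and 16 without a filter. Without a filter P0 minus F28 went from the reported 25 and 5 to 112 and 44. With limma-voom T31 minus F28 in run 3 went from the reported 264 and 462 to 196 and 483. The causes were not tested.

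Leaving out 1 animal at a time gave 0 to 24 calls for T31 minus F28 in run 1 and 13 to 42 in run 3, 2 to 7 for T35 minus F28, 0 to 74 for T35 minus T31, 1 to 2 for F23 minus F20, 77 to 135 for F28 minus F23, 100 to 128 for T37 minus T31, 1 to 4 for T42 minus F28, 1 to 4 for P7 minus P0 and 0 to 2 for P3 minus P0. F28 minus F27, P0 minus F28, P7 minus T35, P7 minus P3, P3 minus T31 and the difference of changes gave 0 calls in each such fit. Where this left 1 library in a group, that library was taken to vary like the other groups. The sign of the median over the 150 genes held in every alternative for 11 of the 16 comparisons. The exceptions were T35 minus F28 (-0.44 to 0.49), T42 minus F28 (-0.46 to 0.06), P7 minus P0 (-0.20 to 0.55), P7 minus T35 (-0.50 to 1.08) and the difference of changes (-0.06 to 1.49).

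In run 2 the animal numbers shared by preterm groups gave correlations of deviations between -0.16 and 0.19, so the numbers were not taken as a pairing. With the number as a replicate block, 2 genes passed for P7 minus P0, 7 for P3 minus P0 and 0 for P7 minus P3, and ENSOCUG00000000960 had a P7 minus P0 log2 fold change of -1.53 with an adjusted p of 0.0632. The other comparisons share fewer than 2 numbers within a run.

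The depth of 5771693 to 8073755 counts per library means that genes below 1 CPM rest on a few reads. Run 2 held 2 animals each of F28, P7 and T35 and run 3 held 2 of F28, so comparisons with these groups rest on few animals.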
